A study of Mus musculus with 9 samples.

Results

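The major urinary protein (Mup) genes followed here are Mup1, Mup3, Mup7, Mup11, Mup12 and Mup21, and they were taken as the rows of the gene expression table whose gene name is one of these 6 names. The names were chosen by results of these libraries, taken here to be their FPKM in all 9, so their levels are given as a description and no test is made on them. The table held 52151 rows, of which 26345 had a known transcript and a gene name. A member name stood on 7 rows, and 6 of these held known transcripts. Counting every row named Mup or holding an annotated Mup transcript, the family took 42 rows, 20 of them protein-coding.

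Liver RNA came from 3 groups of 3 libraries each. Pair-fed mice (PF) drank an isocaloric control liquid diet, alcohol-fed mice (AF) drank the Lieber-DeCarli diet, a liquid diet that carries ethanol, and the remaining group drank the same alcohol diet and had MNA injected into the abdominal cavity every day at 50 mg/kg (AF with MNA). Feeding lasted 5 weeks and all labels give an age of 8 weeks. The strain is C57BL/6 in the labels of PF and AF, while the AF with MNA labels read C57BL/7, C57BL/8 and C57BL/9 in turn, and the methods describe male C57BL/6J mice without naming an MNA group. No genotype or transgene is given, MNA is not spelled out, and the labels do not say whether each library was a separate animal, so that the spread between libraries may be partly technical. Total reads ranged from 57800660 to 82179248, with a median of 66450747. Summed FPKM (read pairs scaled to transcript length and to the size of the library) of 8 hepatocyte markers, Alb and Apoa1 among them, lay between 17330.52 and 24928.82 in the 9 libraries, and Y-linked genes were present and Xist at most 0.06 FPKM in all of them. In whole liver, fewer hepatocytes and less Mup RNA per hepatocyte cannot be told apart.

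Major urinary proteins are small secreted lipocalins, barrel-shaped carriers that bind volatile pheromones in their core, pass from the liver through the blood into the urine and slow the release of scent from urine marks. In the mouse liver they belong to the most abundant secretory transcripts, and males make far more of them than females. Their transcription depends on the pulses of growth hormone typical of males, which act through the growth hormone receptor, JAK2 and STAT5B, and on androgens, glucocorticoids and thyroid hormone. The genes form a tandem array of near-identical copies with pseudogenes between them.

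The family lies on chromosome 4. In the GENCODE M21 annotation of mouse build GRCm38, the rows with a known transcript named Mup spanned 2147426 bp, from 60003438 to 62150863. The deposited lncRNA coordinates matched this build at the locus, with 4 of 4 known lncRNA transcripts there at the annotated start and end. All 6 member genes are on the minus strand and each has up to 7 exons, Mup21 having 6. In order of position, Mup7 extends from 60066469 to 60070475, Mup1 from 60498012 to 60501960, Mup11 from 60658466 to 60662411, Mup12 from 60737383 to 60741326, Mup3 from 62083476 to 62087342 and Mup21 from 62147932 to 62150863.

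The member genes fall into 2 sequence types, which are shown because they set how well each row can be told from its neighbours. The lines give 90 bases of the coding sequence of each gene from the GENCODE M21 transcripts, aligned without gaps, with bases that differ from Mup1 in capitals. The stretch covers bases 32 to 121 of the Mup1 coding sequence and the aligned bases of the others.
Mup1: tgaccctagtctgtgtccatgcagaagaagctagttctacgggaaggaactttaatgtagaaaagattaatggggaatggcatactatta
Mup11: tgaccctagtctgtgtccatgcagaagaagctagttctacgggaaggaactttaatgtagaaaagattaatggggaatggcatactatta
Mup7: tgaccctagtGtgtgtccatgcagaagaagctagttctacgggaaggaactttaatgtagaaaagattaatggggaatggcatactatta
Mup12: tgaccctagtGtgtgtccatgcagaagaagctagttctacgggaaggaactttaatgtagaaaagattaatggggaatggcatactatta
Mup3: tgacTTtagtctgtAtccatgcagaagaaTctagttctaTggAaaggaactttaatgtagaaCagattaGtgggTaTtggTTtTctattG
Mup21: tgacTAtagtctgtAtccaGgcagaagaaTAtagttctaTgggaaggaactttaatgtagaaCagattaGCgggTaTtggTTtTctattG
In this stretch Mup11 was identical to Mup1, Mup7 and Mup12 carried the same 1 difference, and Mup3 and Mup21 carried 14 and 16 differences.

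Over the whole coding sequence, Mup1 and Mup12 differed by 2 bases, an identity of 99.6%, and the 4 genes Mup1, Mup7, Mup11 and Mup12 were at least 98.4% identical to each other. Mup3 and Mup21 were 95.0% identical to each other, and each was at most 85.4% identical to the other 4. All stretches of 150 bases along 1 transcript of each of the 22 annotated protein-coding Mup genes were compared with the transcripts of all other genes of the family. None of the stretches of Mup3 and none of those of Mup21 occurred in another gene. By contrast, 82.5% of the stretches of Mup1, 77.5% of Mup7, 78.2% of Mup11 and 75.9% of Mup12 occurred in at least 1 other gene, and each of these 4 shared stretches with 14 or 15 genes. How the authors' quantification divided reads that fit several copies is not given in the sources used here, so the split of signal among these 4 rows is uncertain. The Mup3 row has its own limit, since its 7 transcripts, 5 of them known, belong to Mup3, Mup20 and the pseudogene Mup-ps21. Mup20, which encodes darcin, the male pheromone protein that attracts females, therefore had no row of its own. The rows of Mup1, Mup7, Mup11, Mup12 and Mup21 held known transcripts of 1 gene each.

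Promoter windows are shown for Mup3 and Mup21, the members with the largest differences between PF and AF, and for Mup11 as the other sequence type. The windows are RefSeq sequences of build GRCm38.p6, on the minus strand, from 250 bases before the annotated start to 20 bases after it, with the letters TATAA in capitals.
Mup3, chr4:62087298-62087567: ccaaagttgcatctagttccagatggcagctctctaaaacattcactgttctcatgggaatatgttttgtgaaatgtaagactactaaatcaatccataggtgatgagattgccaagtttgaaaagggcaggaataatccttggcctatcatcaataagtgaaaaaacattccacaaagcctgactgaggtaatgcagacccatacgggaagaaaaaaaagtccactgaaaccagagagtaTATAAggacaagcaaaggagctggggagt
Mup21, chr4:62150822-62151091: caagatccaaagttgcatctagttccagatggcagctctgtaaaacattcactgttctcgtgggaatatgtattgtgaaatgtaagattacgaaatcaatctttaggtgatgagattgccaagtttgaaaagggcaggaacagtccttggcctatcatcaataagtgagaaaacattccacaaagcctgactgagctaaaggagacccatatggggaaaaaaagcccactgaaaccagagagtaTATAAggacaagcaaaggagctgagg
Mup11, chr4:60662376-60662645: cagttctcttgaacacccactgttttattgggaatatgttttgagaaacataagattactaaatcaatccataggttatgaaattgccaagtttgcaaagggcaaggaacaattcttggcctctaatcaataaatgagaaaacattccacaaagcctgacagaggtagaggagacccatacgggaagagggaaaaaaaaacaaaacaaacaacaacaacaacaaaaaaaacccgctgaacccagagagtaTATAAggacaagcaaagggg
Promoter sequences were found for 4 of the 6 members (Mup3, Mup7, Mup11 and Mup21) and for 14 of the 22 protein-coding Mup genes. Over the aligned part of the full windows, which reach 50 bases past the start, Mup3 and Mup21 were 92.9% identical and Mup7 and Mup11 98.5%, whereas Mup3 and Mup11 were 76.7% identical. TATAA, read on the gene's strand and chosen after these sequences were seen, stood in the windows of 3 of the 4 members and 13 of the 14 family genes, against 17.5% of 32851 promoter windows of the mouse table. The member window without it was that of Mup7, which ends before the place where TATAA stands in the aligned Mup11 window. The STAT5 motif TTCNNNGAA, searched on both strands, was in none of the 14 windows, against 8.30% of all windows, which says only that these letters are not within this short distance of the start.

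In PF livers the members other than Mup21 were at 1005 FPKM or more in every library, and in AF livers the summed level of the 6 names was lower. The member rows summed to 10733.69, 17466.47 and 11955.67 FPKM in PF, to 1683.63, 9201.71 and 3081.25 FPKM in AF, and to 2023.95, 8319.77 and 8819.66 FPKM in AF with MNA. All 3 AF sums lay below all 3 PF sums, and AF replicate 2 stood well above the other AF libraries. The log2 ratio of the group means was -1.52 for AF to PF, and it was -2.49 without AF replicate 2. As a share of all FPKM in a library, the members took 5.09% to 7.84% in PF, and 0.830%, 4.34% and 1.33% in the 3 AF libraries. The 20 protein-coding Mup rows together took 14.8% to 21.2% in PF and 4.81%, 15.9% and 6.58% in AF.

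Mup21 showed the largest difference of the 6. Its row had 61.82, 125.27 and 37.91 FPKM in the PF libraries, against 0.45, 1.64 and 0.76 FPKM in the AF libraries. No PF library came near an AF library, and the PF mean of 75.0 ± 45.1 FPKM was 78.9-fold the AF mean of 0.950 ± 0.617 FPKM (SD, n = 3 libraries each). Mup21 was also the lowest member in every library. The log2 ratio of the means, -6.30, ranged from -6.95 to -5.71 as each library was left out in turn. A further row under the same name held an assembled transcript of 225 bases within a Mup21 intron, listed at 3.01, 0 and 0 FPKM in PF, against 0.05, 0 and 2.07 FPKM in AF, and its levels did not follow those of the gene.

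Mup3 came next. The merged row of Mup3 and Mup20 had 2146.86, 2893.25 and 2593.16 FPKM in PF, against 284.22, 550.32 and 381.25 FPKM in AF. The groups were wide apart, with the highest AF library far under the lowest PF library. From 2544 ± 376 FPKM in PF the mean was 6.28-fold lower in AF, at 405 ± 135 FPKM (SD, n = 3 libraries each), a log2 ratio of -2.65. Mup3 was the member least altered by the choice of libraries, with a log2 ratio of -2.93 without AF replicate 2 and of -2.45 without AF replicate 1. Of Mup3 and Mup20, neither could be given a value of its own from this row.

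Mup7 was the most abundant member in all 9 libraries. It had 4607.87, 7168.38 and 4904.79 FPKM in PF, against 585.84, 4373.5 and 1172.32 FPKM in AF, and AF replicate 2 lay just under the lowest PF library. The means were 5560 ± 1400 FPKM and 2044 ± 2039 FPKM (SD, n = 3 libraries each), a log2 ratio of -1.44 that became -2.66 without AF replicate 2. Mup11 had 1263.83, 2026.69 and 1205.16 FPKM in PF, against 316.37, 815.23 and 508.54 FPKM in AF. Its groups did not overlap either, the log2 ratio was -1.45, and it was -1.86 without AF replicate 2.

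Mup1 and Mup12 were the members whose groups overlapped. For Mup1, which has also been studied as a circulating regulator of glucose and lipid metabolism, the PF libraries had 1005.16, 1946.13 and 1190.25 FPKM and the AF libraries 190.69, 1160.08 and 390.56 FPKM. AF replicate 2 fell within the PF range, and the other AF libraries fell below it. Mup12 had 1645.14, 3306.75 and 2024.4 FPKM in PF, against 306.01, 2300.94 and 625.75 FPKM in AF, with AF replicate 2 again among the PF libraries. The log2 ratios were -1.25 for Mup1 and -1.11 for Mup12, and without AF replicate 2 they were -2.25 and -2.32.

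**Figure D1:**
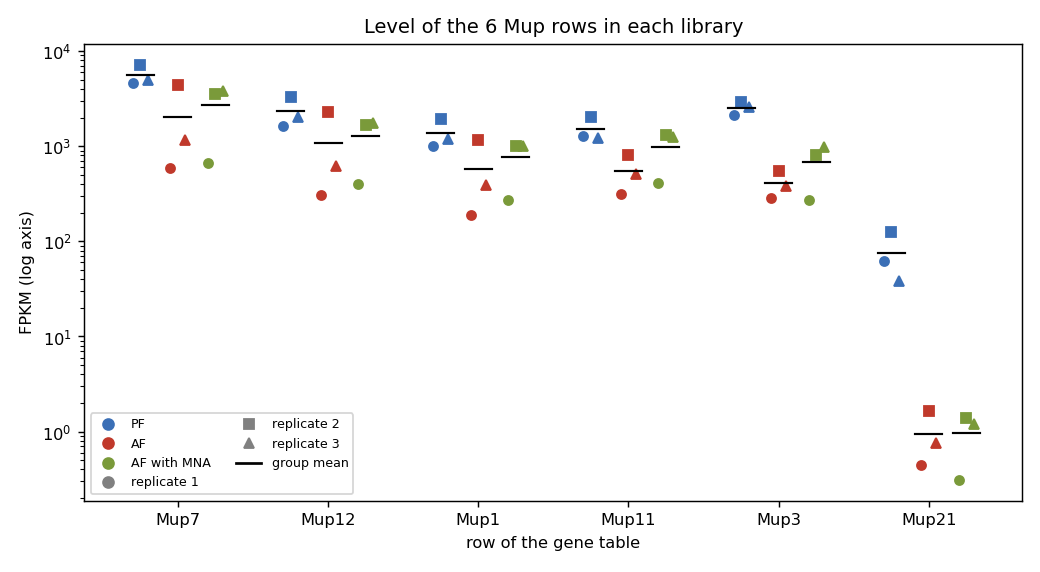
Level of the 6 member rows (FPKM, log axis) in the 3 PF, 3 AF and 3 AF with MNA libraries, with a marker shape for each replicate number and a black bar at each group mean. Mup21 dropped from between 37.91 and 125.27 FPKM in PF to between 0.45 and 1.64 FPKM in AF, Mup3 fell to 550.32 FPKM or less, and the square of AF replicate 2 reached the PF range for Mup1 and Mup12.

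In 4 of the 6 members, every AF library lay below every PF library, and the same non-overlap downward was seen in 10.1% of the 12268 genes compared. Because the members were chosen with these values known, nothing is read from this count. The fitted differences, AF minus PF on the log2(FPKM + 1) scale, were -5.16 (SE 0.45) for Mup21, -2.69 (SE 0.28) for Mup3, -1.92 (SE 0.70) for Mup7, -1.58 (SE 0.65) for Mup1, -1.55 (SE 0.72) for Mup12 and -1.52 (SE 0.39) for Mup11. The standard errors of the 4 near-identical genes were larger than that of Mup3.

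The order of the members by level was not the same in the 3 groups. Mup7 was highest and Mup21 lowest in every library, but Mup3 came directly after Mup7 in PF replicates 1 and 3 and after Mup7 and Mup12 in PF replicate 2, while in all AF and AF with MNA libraries only Mup21, or Mup1 and Mup21, ranked below it. The Mup7 level was 2.15, 2.48 and 1.89 times that of the Mup3 row in PF, against 2.06, 7.95 and 3.07 times in AF. AF replicate 1 lay among the PF libraries in this ratio, so the change in rank did not come with a ratio that separated the groups. Relative to Mup21, Mup7 was between 57.2 and 129 times higher in PF and between 1302 and 2667 times higher in AF, with no overlap. Within AF, Mup1 and Mup11, neighbours by mean at 580 ± 512 and 547 ± 252 FPKM, did not differ beyond their spread. The ratio of Mup12 to Mup1, whose transcripts share most of their sequence, stayed between 1.46 and 1.98 in all 9 libraries.

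**Figure D2:**
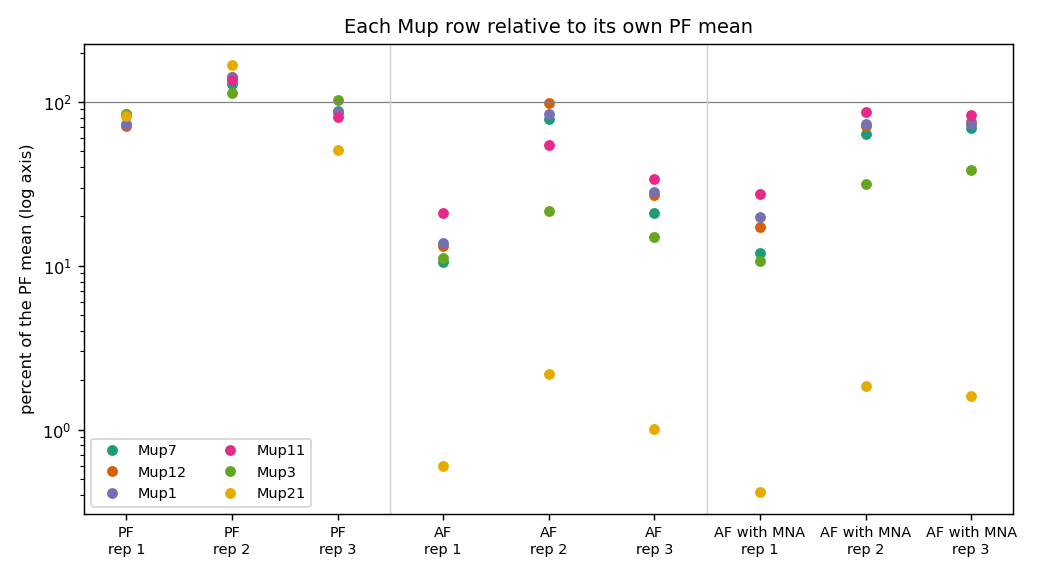
Each member row as a percentage of its own PF mean (log axis) in each of the 9 libraries. In AF replicate 2 Mup12 stood at 98.9% and Mup21 at 2.19% of the PF mean, whereas in AF replicate 1 the 5 members other than Mup21 lay between 10.5% and 21.1%.

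The members moved together across libraries. PF replicate 2 was the highest of all 9 libraries for all 6 members, AF replicate 1 the lowest and AF replicate 2 the highest AF library for all 6, and AF with MNA replicate 1 the lowest of its group for all 6. Over the 9 libraries, Pearson's r on log2(FPKM + 1) was 0.997 between Mup1 and Mup12 and 0.992 between Mup7 and Mup1, rows that share stretches of sequence. Between Mup3 and Mup21, which share none of the stretches, r was 0.922, and the lowest r among the members was 0.656, between Mup12 and Mup21. These values describe 9 libraries from 3 groups that differ in mean.

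Among the other protein-coding Mup rows, most of which share stretches of sequence with the members and which are also only described, most were lower in AF on average and overlapped PF. Their 14 rows summed to 20532.96, 29767.5 and 22212.04 FPKM in PF, against 8058.5, 24485.48 and 12208.86 FPKM in AF, with AF replicate 2 inside the PF range. The log2 ratio of these sums was -0.70. In 13 of the 14, AF replicate 2 reached at least the lowest PF library. Mup15 was the exception, with 3257.2, 5003.77 and 3230.05 FPKM in PF, against 243.28, 1496.93 and 495.39 FPKM in AF, a log2 ratio of -2.36. The row that carries Mup22, named Gm21320 in the table, was the highest of these 14 in AF and had the smallest difference, from between 3781.82 and 4773.3 FPKM in PF to between 2099.69 and 4671.16 FPKM in AF (log2 ratio -0.39). Mup5 and Mup6, which share no such stretch, were at most 0.72 FPKM in any library.

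The pseudogene rows of the array are described in the same way. Mup-ps19, a pseudogene with 6 exons from 61957149 to 61959911, had 193.51, 377.79 and 237.01 FPKM in PF, against 16.06, 29.68 and 18.28 FPKM in AF. It was the most abundant of the 21 pseudogene rows, as the other 20 did not exceed 14.38 FPKM in any library. Of these 20, 17 were under 5 FPKM in every library. In 9 of the 21 every AF library lay below every PF library, where 10.1% of the genes compared did so, and in the other 12 the groups overlapped. Mup-ps8 was among the 9, with 1.16, 4.69 and 1.92 FPKM in PF, against 0.04, 0.28 and 0.39 FPKM in AF. Mup-ps12 was among the 12, with 0.92, 2.76 and 3.21 FPKM in PF, against 0.87, 0.79 and 2.29 FPKM in AF.

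**Figure D3:**
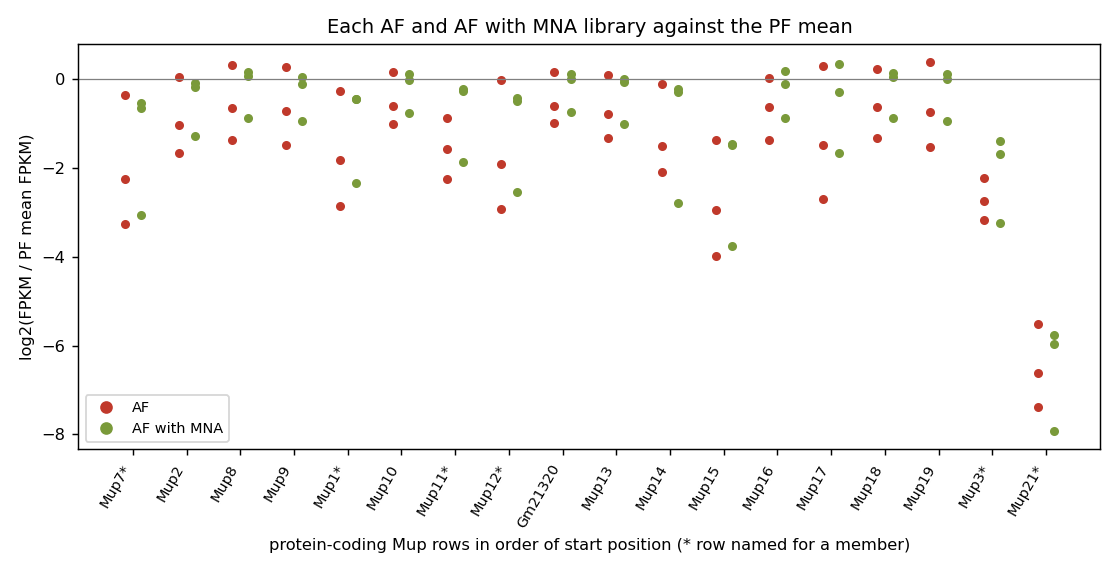
Log2 ratio of each AF library (red) and each AF with MNA library (green) to the PF mean for the 18 protein-coding Mup rows with a PF mean of at least 1 FPKM, in order of start position, with rows named for a member starred. The 2 rows at the right end, Mup3 and Mup21, had group log2 ratios of -2.65 and -6.30, while most rows further left had an AF library near or above 0.

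In the group injected with MNA while on the alcohol diet, the members were on average somewhat higher than in AF and overlapped AF. In the AF with MNA libraries, Mup7 had 667.56, 3543.09 and 3824.31 FPKM. Mup11 had 412.14, 1299.22 and 1251.08 FPKM in this group. For Mup3 the values were 271.42, 799.77 and 973.55 FPKM. Replicates 2 and 3 were above all AF libraries for Mup11 and Mup3, while replicate 1 was in or below the AF range for each of these genes. Mup1 had 272.86, 1013.4 and 1015.24 FPKM and Mup12 had 399.66, 1662.91 and 1754.28 FPKM, values inside the AF range. Mup21 stayed low, with 0.31, 1.38 and 1.2 FPKM.

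The log2 ratios of AF with MNA to AF were 0.85 for Mup11, 0.75 for Mup3, 0.40 for Mup1, 0.39 for Mup7, 0.24 for Mup12 and 0.02 for Mup21. None of the 6 was above AF without overlap, against 5.53% of 12214 genes. Fitted differences on the log2(FPKM + 1) scale ranged from 0.01 (SE 0.31) for Mup21 to 0.78 (SE 0.54) for Mup11. The sum of the members had a log2 ratio of 0.46, and it was 0.06 without AF replicate 1 and 1.42 without AF replicate 2. Mup1, Mup7, Mup12 and Mup21 had negative log2 ratios without AF replicate 1, of -0.02, -0.05, -0.20 and -0.32. Those of Mup12 and Mup21 were also negative without AF replicate 3 and without AF with MNA replicate 2 or 3, at the lowest -0.06 for Mup12 and -0.33 for Mup21, and that of Mup21 was -0.03 with scaled libraries.

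Genes outside the family were tested in the fit over all genes, in lists that were themselves drawn up with earlier results of these data known. The counts and medians of all these lists are therefore a description, and nothing is read from setting them beside the background. The threshold was that of the study's methods, a log2 ratio of mean FPKM past 1 in size together with an unadjusted p below 0.05, here from limma on log2(FPKM + 1). Of 20 genes listed as male-biased in mouse liver, 16 were tested in AF against PF. Of these, 9 fell and none rose, at a background of 2.35% of all genes lower, and the list's median log2 ratio was -2.18 against -0.03 for all genes. An adjusted p under 0.05 (limma, Benjamini-Hochberg over all genes) was reached by 4 of them, and by 0.326% of all genes. With each library left out in turn the count was 9 or 10.

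Hsd3b5, a steroid-metabolising enzyme of the male liver, had 11.05, 27.64 and 13.29 FPKM in PF, against 0.06, 0.17 and 0.13 FPKM in AF. That is a log2 ratio of -7.17 (limma adjusted p = 0.00766). Elovl3, which elongates long-chain fatty acids, fell from 40.7 to 2.93 FPKM (limma adjusted p = 0.0073). Cyp4a12b, a fatty acid hydroxylase induced by androgen, fell from 24.3 to 2.05 FPKM (limma adjusted p = 0.0283). Serpina1e, a secreted protease inhibitor, passed the threshold with 2687 FPKM in PF, against 301 FPKM in AF, but its adjusted p from limma was 0.11. The list's summed level was 3303.67, 5641.01 and 2452.43 FPKM in PF, with replicate 3 the lowest, where for the summed members it was replicate 1. Most of this PF sum was Serpina1e, at 2319.07, 4220.69 and 1520.07 FPKM, so its order is largely that of this gene. The list summed to 565.6, 1238.03 and 708.24 FPKM in AF and to 543.96, 1141.7 and 1183.29 FPKM with MNA.

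Of the 22 genes of the female-biased list 12 were tested, and 9 rose and none fell in AF at a background of 1.95% of all genes higher, with a median log2 ratio of 2.73. Acot3, Nipal1 and Abcd2 did not pass, and Abcd2 had means of 2.21 FPKM in PF and 2.11 FPKM in the AF libraries. An adjusted p under 0.05 was reached by 3, and the count of 9 ranged from 6 to 11 as libraries were left out. Cyp2b10, a drug-metabolising P450 that is also induced through the nuclear receptor CAR whatever the sex, had 0.28, 0.22 and 3.33 FPKM in PF, against 259.56, 194.66 and 132.88 FPKM in AF (limma adjusted p = 0.0073). Cyp2b13, a related P450 of the female liver, was listed at 0, 0.01 and 0 FPKM in PF, against 4.77, 5.48 and 7.36 FPKM in AF (limma adjusted p = 0.00263). Cyp2a4, a testosterone hydroxylase of the female liver, rose from 1.41 ± 0.23 to 27.7 ± 12.3 FPKM (SD, n = 3 libraries each; limma adjusted p = 0.00817). Cyp2b9 had 0.02, 0.01 and 0.15 FPKM in PF, against 6.66, 3.33 and 30.72 FPKM in AF (limma adjusted p = 0.147).

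In the growth hormone axis few genes passed the threshold. Of 17 tested genes, 2 fell and none rose, at a background of 4.3% of all genes in either direction, and none had an adjusted p under 0.05 (limma), while 2 had an unadjusted p under 0.05. Ghr, the growth hormone receptor, had 17.38, 13.98 and 12.43 FPKM in PF, against 5.73, 4.47 and 11.21 FPKM in AF, and the groups did not overlap. Its log2 ratio of -1.03 (limma adjusted p = 0.31) lay close to the threshold of 1, and it no longer passed without PF replicate 1, AF replicate 1 or AF replicate 2, at -0.89, -0.90 and -0.79. Onecut1, a hepatocyte transcription factor regulated by growth hormone, had means of 4.2 FPKM in PF and 1.36 FPKM in AF (limma adjusted p = 0.293).

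Stat5b, the signal transducer that male growth hormone pulses activate, had 6.42, 5.31 and 6.01 FPKM in PF, against 5.94, 4.28 and 6.81 FPKM in AF. Igf1, the circulating growth factor induced by growth hormone, had 34.48, 39.98 and 35.46 FPKM in PF, against 38.72, 39.87 and 28.73 FPKM in AF. Both sets of libraries overlapped. Socs2, a feedback inhibitor of the receptor, was low throughout, from 0.42 to 1.49 FPKM in the PF and AF libraries. The fitted differences, AF minus PF on the log2(FPKM + 1) scale, were -0.07 (SE 0.17) for Stat5b, -0.05 (SE 0.17) for Igf1 and 0.06 (SE 0.23) for Socs2.

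Lipocalin genes outside the cluster formed another list. Of 11 listed genes 7 were tested, 1 fell and none rose, at a background of 2.35% of all genes lower, and their median log2 ratio was 0.03. The gene that fell was Obp2a, an odorant-binding lipocalin, from 4.96, 0.42 and 2.58 FPKM in PF to 0.44, 0 and 0.14 FPKM in AF (limma adjusted p = 0.369), with overlapping groups. It no longer passed without PF replicate 1 or 3 or without AF replicate 2 or 3. Rbp4, the plasma carrier of retinol, had means of 1510 and 1542 FPKM.

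**Figure D4:**
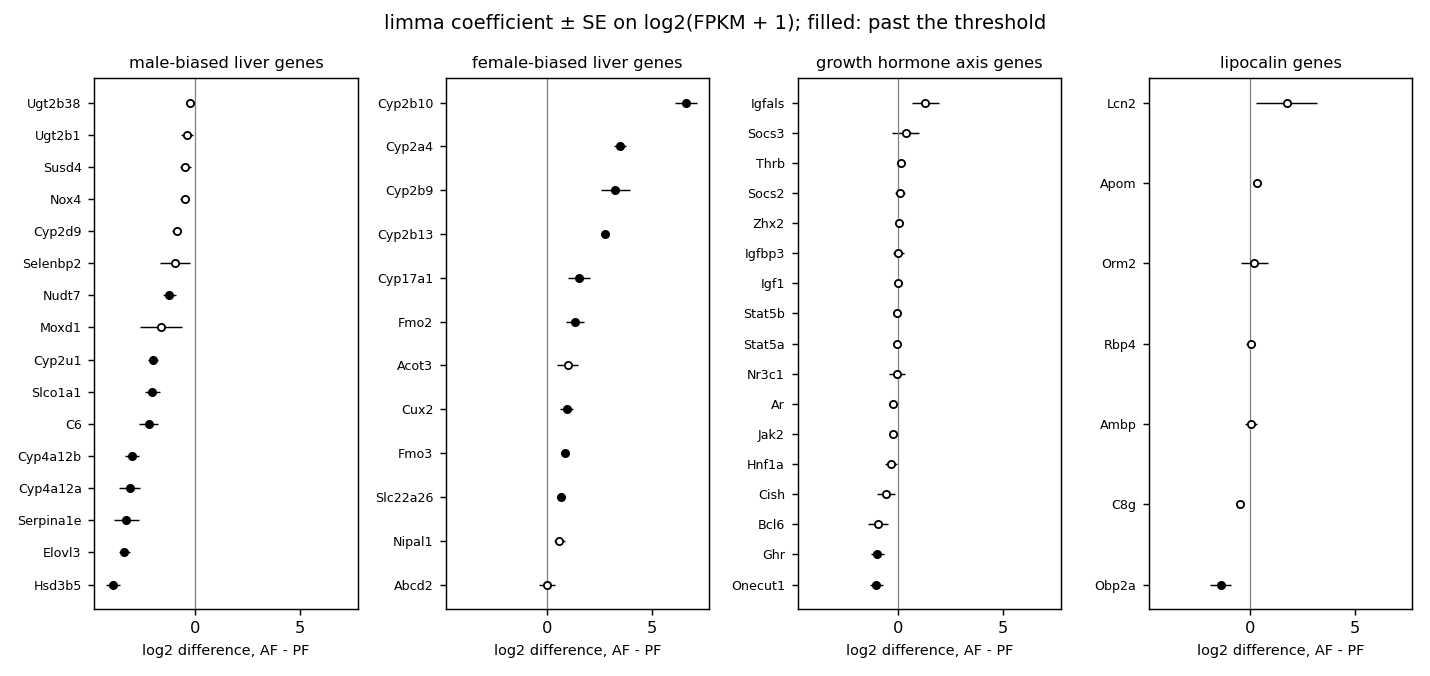
Limma coefficients (AF minus PF on the log2(FPKM + 1) scale, points) with standard errors (lines) for the tested genes of the male-biased, female-biased, growth hormone axis and lipocalin lists, with filled points for genes past the threshold. All 9 filled points of the male-biased list lie left of 0 and all 9 of the female-biased list right of 0, and Stat5b and Igf1 lie at 0 within their errors.

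In AF with MNA against AF, 1 of 14 tested male-biased genes (Elovl3), 1 of 14 female-biased genes (Acot3), 1 of 17 growth hormone axis genes (Cish) and none of 6 lipocalins passed the threshold, at a background of 1.98% of all genes. Each of the 3 was higher, at a background of 1.03% of all genes higher, and none had an adjusted p under 0.05 (limma), which 0.0491% of all genes reached. Elovl3, at 2.33, 3.99 and 2.46 FPKM in AF, had 2.93, 14.79 and 16.8 FPKM with MNA, a log2 ratio of 1.98 (limma adjusted p = 0.94). As for the members, replicate 1 was the low library. The male-biased count was 5 without AF with MNA replicate 1 and 0 without any other single library, and it was 0 with scaled libraries and with any value above 0.

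Summed markers of other cell types also differed between libraries, not always in step with the members, and their part in the results was not tested. The summed level of 6 Kupffer cell markers was 84.91 FPKM in AF replicate 2, the AF library with the highest member levels, against 47.19 and 45.34 FPKM in the other AF libraries and 57.4 to 70.09 FPKM in PF. The sum of 5 sinusoidal endothelial markers was 19.74 to 24.34 FPKM in PF, 24.85 to 36.24 FPKM in AF and 30.4 to 33.84 FPKM in AF with MNA. Summed stellate cell markers, with Dcn the largest part, overlapped between PF (29.04 to 34.15 FPKM) and AF (29.12 to 40.07 FPKM). Within the sum, Col1a1 (0.39 to 0.69 FPKM in PF, 0.8 to 1.32 FPKM in AF) and Des (0.59 to 0.88 and 1.26 to 1.77 FPKM) were higher in AF without overlap. Lrat, Dcn, Colec11 and Reln overlapped, with Reln lower in AF on average. Cholangiocyte and lymphocyte markers summed to at most 2.46 and 0.65 FPKM in any library. The hepatocyte marker sum was lowest in AF replicate 2 (17330.52 FPKM), a library in which the member levels were high for its group.

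Of 12226 genes outside the Mup names, those whose log2 level was most like that of the summed members over the 9 libraries were Nudt7 (Pearson's r = 0.965), Alas2 (0.964), Prelid3b (0.962), Slco1a1 (0.959) and Scarb2 (0.940). Nudt7, a peroxisomal coenzyme A hydrolase, had 33.13 to 39.93 FPKM in PF, against 11.22, 24.18 and 10.93 FPKM in AF. The intermediate library was AF replicate 2, as for the members. Alas2, the erythroid enzyme of haem synthesis, had 37.22 to 43.33 FPKM in PF, against 6.66, 18.21 and 8.71 FPKM in AF. Slco1a1, an organic anion transporter, had 34.81 to 53.91 FPKM in PF, against 5.54, 16.92 and 10.63 FPKM in AF. Nudt7 and Slco1a1 also stand in the male-biased list, which was drawn up with earlier results of these data known. This ranking was made on the member values, over 9 libraries from 3 groups that differ in mean, and is only a description.

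Non-coding transcripts of the cluster were measured in separate tables. The lncRNA table held 26 transcripts between the ends of the array, and all 26 were tested in AF against PF. Of these, 2 passed the threshold as lower, at a background of 1.06% of 18310 transcripts lower, and none had an adjusted p under 0.05 (limma). MSTRG.29796.2, an assembled transcript of Gm12909 on the strand opposite to Mup3 from 62088131 to 62103374, just beyond the Mup3 start, had 9.22, 8.44 and 9.04 FPKM in PF, against 3.12, 1.41 and 8.49 FPKM in AF (limma adjusted p = 0.598). Its highest AF library was replicate 3, not replicate 2 as for Mup3. MSTRG.29730.1, an unspliced assembled transcript near Mup7, had means of 1.89 and 0.635 FPKM (limma adjusted p = 0.598). In AF with MNA against AF, 1 of 24 tested passed, Gm13775, from 0.476 to 2.39 FPKM (limma adjusted p = 0.591), at a background of 0.633% of transcripts higher. Of 4486 circular RNAs, 1 lay in the cluster, an intronic circle of Mup7 with 1 junction read, in AF replicate 2.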

How the data were processed

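Liver RNA of 9 mouse libraries, 3 each of PF, AF and AF with MNA, was depleted of ribosomal RNA and sequenced from both ends with strand marked. The authors deposited gene and lncRNA transcript levels as FPKM, made with StringTie 1.3.4 according to the submitters' processing notes, which also name HISAT2, TopHat and cutadapt 1.9. The lncRNA table also holds the deposited read coverage (signal) and coding scores (score), and circRNAs come as deposited junction counts (count) with normalized signal. Groups came from the labels. The genome build is not given in the sources used here, and lncRNA coordinates were checked against GENCODE M21. Total reads were recovered from the circRNA columns. No counts are given for genes, so precision rests on the spread between libraries.

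The members and all gene lists were chosen with earlier results of these data known. Genes with a known transcript, a name and an average of 0.5 FPKM or more in the libraries compared (0.1 for lncRNAs) were fitted as log2(FPKM + 1) with limma 3.58.1 (lmFit and eBayes with trend, two-sided, Benjamini-Hochberg over all genes), and "past the threshold" means a log2 ratio of mean FPKM past 1 in size together with an unadjusted p below 0.05. Genes were named by a fixed rule: every Mup row (departing from it, most rows beyond the members are given only by counts and ranges, and those named were chosen after their values were seen), up to 4 changed genes of each list with the largest log2 ratio, Ghr, Stat5b, Igf1 and Socs2, and the 5 genes most like the member sum; other names were chosen after their values were seen. Sequences were compared with edlib 1.3.9.post1 and Biopython 1.88, using for each gene the coding transcript nearest to 546 bases. Alternatives were pseudocounts, minimum levels, scaling, no trend, all libraries in the fit, a replicate block, the limma coefficient as fold change and leaving out each library; summing all protein-coding Mup rows was added after the data were seen. R 4.3.3, Python 3.11.15, pandas 2.3.3, numpy 2.4.6 and matplotlib 3.10.9 were used.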

Additional observations from a re-analysis of the deposited data

How the results depend on the processing

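The summed member level kept its direction under every alternative run. For AF against PF the log2 ratio of -1.52 ranged from -2.49 (without AF replicate 2) to -1.12 as libraries were left out, and from -1.96 to -0.94 otherwise, the latter with all protein-coding Mup rows summed. For AF with MNA against AF the 0.46 ranged from 0.06 to 1.42 with libraries left out. Counts of genes past the threshold, 527 and 242, were 1183 and 676 with any value above 0, 265 and 81 at 2 FPKM, and 249 and 99 with the limma coefficient as fold change, and 516 to 764 and 211 to 367 with a library left out, the last without AF replicate 3. In AF against PF the growth hormone count was 1 with all 9 libraries in the fit, where Onecut1 no longer passed, and 1 to 2 with a library left out. Without PF replicate 1 it was 1 lower and 1 higher gene, and with any value above 0 it was 2 lower and 1 higher. The lipocalin count was 0 at 2 FPKM and 0 to 1 with a library left out. In AF with MNA against AF the male-biased count of 1 was 0 with any value above 0 and with scaled libraries and 0 to 5 with a library left out (5 without AF with MNA replicate 1), the female-biased count of 1 was 2 with all 9 libraries and 0 to 2 with a library left out, and the growth hormone count of 1 was 0 with any value above 0, at 2 FPKM, with scaled libraries, all 9 libraries, the replicate block or the coefficient and 0 to 2 with a library left out. The causes were not tested.

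Differences changed sign as libraries were left out: in AF against PF, Stat5b (-0.21 to 0.11), Igf1 (-0.12 to 0.10, and 0.018 with scaled libraries) and Socs2 (-0.44 to 0.53), and in AF with MNA against AF, Mup1 (-0.02 to 1.40), Mup7 (-0.05 to 1.61), Mup12 (-0.20 to 1.45), Mup21 (-0.33 to 0.67), Serpina1e (-0.0051 to 1.28), Cyp2b9 (-0.42 to 1.73), Cyp2a4 (-0.45 to 0.52), Ghr (-0.079 to 0.66), Stat5b (-0.21 to 0.11) and Socs2 (-0.72 to 0.47). Over all genes, same-numbered libraries did not deviate together (correlations from -0.044 to 0.062), and the main fit used no pairing by number. With 3 libraries in each group, these correlations cannot exclude a pairing that touches only part of the genes. With the number as a replicate block, 562 and 260 genes passed. The values were FPKM without read counts, so the number of reads behind each was not given.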
